A study of Rattus norvegicus with 9 samples.

Results

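Reactive astrocytes are characterised here by 9 genes for secreted proteins, receptors, membrane proteins and enzymes: Lcn2, Serpina3n, Ptx3, Osmr, S1pr3, Cd109, Emp1, Steap4 and Sphk1. They were taken by name from the 22890 gene IDs of the count tables, and all 9 were found and passed the filter on low counts. The libraries are of rat striatum, 3 each of Sham (the control group), ICH (intracerebral hemorrhage, a bleed inside the brain) and EDB (edaravone dexborneol, which joins a free radical scavenger with dexborneol). The labels give no strain, sex, age, dose or time, do not state whether EDB rats also had a hemorrhage, and are silent on whether each library is a different rat. Every p-value therefore measures only the spread between these samples, which may be technical. Genes of striatal neurons were present in every library, with Ppp1r1b, for the dopamine-regulated phosphoprotein DARPP-32, at 2330 CPM (counts per 1000000, on TMM-scaled library totals) or more and the dopamine receptor gene Drd2 at 249 CPM or more.

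Astrocytes respond to injury by growing thicker processes, building more intermediate filament and switching on a set of secreted and signalling genes. Lists from mouse brain describe a pan-reactive set, induced by several kinds of injury, and an A2 set first linked to stroke. Of the 9 genes, Lcn2, Serpina3n, Osmr, S1pr3 and Steap4 belong to the pan-reactive set, and Ptx3, Cd109, Emp1 and Sphk1 to the A2 set. Most of them are also made by other cells, such as neutrophils, macrophages, endothelium or fibroblasts, and in bulk tissue fewer cells of a type and less RNA per cell cannot be told apart.

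Hemorrhage was compared with Sham to show which of these genes differed after injury. Lcn2, Osmr, S1pr3, Emp1 and Steap4 rose in ICH, which is 5 of 9 genes, none fell, and 4 were not called. The words rose and fell are used where edgeR's quasi-likelihood test gave an adjusted p (Benjamini-Hochberg, over 14274 genes) under 0.05, and 11.4% of those genes were called higher in this comparison. The median log2 fold change was 1.38 over the 9 genes and 0.01 over all genes tested. In 6 of the 9 genes every ICH library lay above every Sham library, as in 20.2% of all genes tested. Of the 5 pan-reactive genes 4 rose, and of the 4 A2 genes 1 rose. The 3 A2 genes that were not called, Ptx3, Cd109 and Sphk1, had the fewest counts, at 158, 89 and 131 over all 9 libraries.

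Edaravone dexborneol was then compared with hemorrhage and with Sham. Against ICH, Emp1 fell and the other 8 genes were not called, where 0.631% of all genes tested were called lower. Lower levels without overlap between the libraries were found for 5 genes, Ptx3, Osmr, S1pr3, Emp1 and Steap4, as for 13.6% of all genes tested. Against Sham, 0 of the 9 genes were called by edgeR's quasi-likelihood test, where 4.95% of all genes were called higher. At an unadjusted p under 0.05 there were 2, Lcn2 and Serpina3n, while DESeq2 called 1, Lcn2, and limma-voom 0. Libraries of EDB lay wholly above those of Sham for Lcn2 and Emp1, 2 of 9 genes, beside 15.1% of all genes tested. Both comparisons share their EDB libraries, and each shares its other group with the comparison of ICH and Sham.

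**Figure D1:**
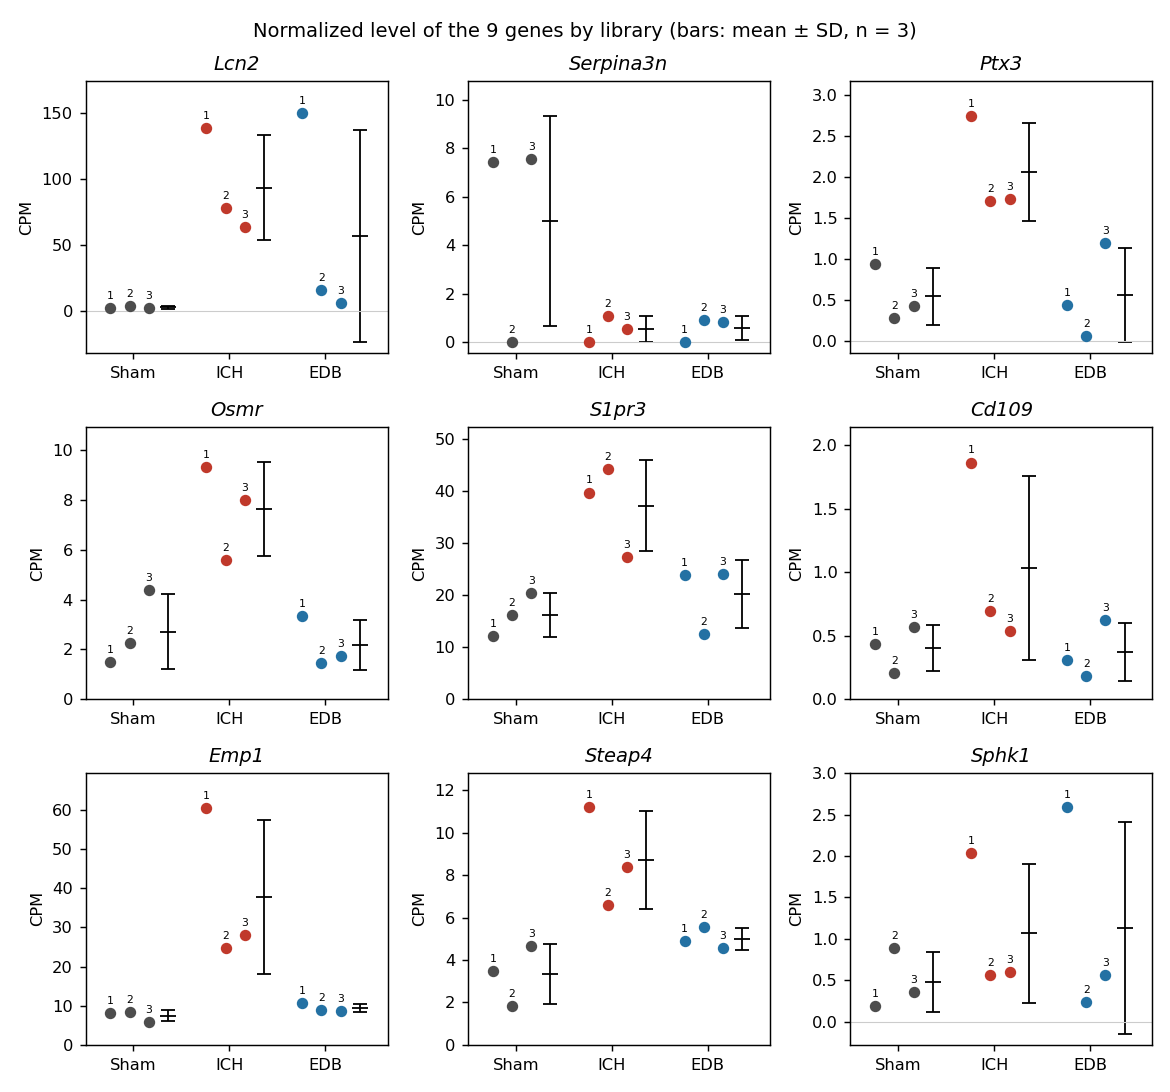
CPM of each gene in the 3 Sham, 3 ICH and 3 EDB libraries. Points are libraries with their replicate number, and the bars beside them are the mean and SD (n = 3), which reach below 0 where 1 library is far above the others. Lcn2 in EDB ran from 5.94 to 149.7 CPM, and Serpina3n was high only in Sham 1 and Sham 3.

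**Figure D2:**
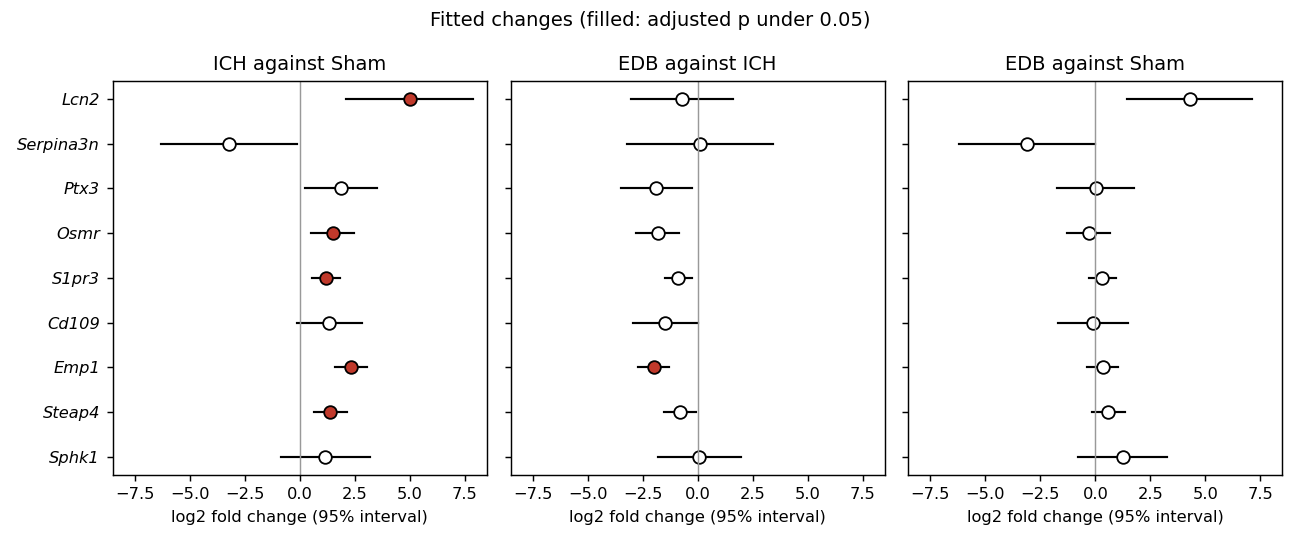
Fitted log2 fold changes of the 9 genes (points) with 95% intervals (lines) in the 3 comparisons. Filled points passed an adjusted p of 0.05, which were 5 in ICH against Sham, 1 in EDB against ICH and 0 in EDB against Sham.

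Stretches of the promoters of 5 members are shown first, 4 of genes that rose in ICH and that of Serpina3n, which did not. They come from RefSeq's rat assembly GRCr8, whereas the counts rest on Rnor_6.0, and each is 90 bases, read 5′ to 3′ on the gene's strand, upstream of the start site in that table. Capitals mark matches, on either strand, to the motifs of STAT (TTCNNNGAA), AP-1 (TGANTCA), C/EBP (TTGCNNAA) and NF-kB, factors known to drive injury genes. The motifs were chosen with the counts known. Each stretch was picked as the 90 bases, within the 250 upstream, that hold the most matches, so it overstates how dense they are.
Lcn2 (chr3:36081933-36082022, minus strand): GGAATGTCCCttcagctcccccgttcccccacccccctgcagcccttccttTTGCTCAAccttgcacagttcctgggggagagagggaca
Osmr (chr2:57688562-57688651, minus strand): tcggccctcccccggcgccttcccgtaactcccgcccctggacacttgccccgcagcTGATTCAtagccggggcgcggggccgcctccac
Emp1 (chr4:169944140-169944229, plus strand): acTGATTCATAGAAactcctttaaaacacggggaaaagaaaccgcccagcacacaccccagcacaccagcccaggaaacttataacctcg
Steap4 (chr4:27054770-27054859, minus strand): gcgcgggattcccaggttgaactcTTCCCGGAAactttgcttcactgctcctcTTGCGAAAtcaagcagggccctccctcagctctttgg
Serpina3n (chr6:129088269-129088358, plus strand): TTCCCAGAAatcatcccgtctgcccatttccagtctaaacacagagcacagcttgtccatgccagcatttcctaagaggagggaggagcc

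The Lcn2 stretch opens with an NF-kB match, 242 to 233 bases upstream of the start site, and a C/EBP match follows at 191 to 184. In Emp1, an AP-1 match at 88 to 82 bases overlaps a STAT match at 85 to 77. The Steap4 stretch holds a STAT match at 66 to 58 and a C/EBP match at 37 to 30 bases upstream. The whole windows of 300 bases, 250 before to 50 after the start, held a STAT match in 4 of the 8 members in the table (Emp1, Serpina3n, Sphk1 and Steap4), and in 8.87% of 33469 such windows. An AP-1 match was found in 3 members and 7.33% of windows, a C/EBP match in 3 members and 10.6%, and an NF-kB match in 3 members and 4.18%. S1pr3 had none, and Sphk1 had 3 windows, 1 for each of its start sites in the table. Members were counted by gene, with a match in any of their windows, whereas the percentages are of windows, so the measures differ. These are letter matches, not measured sites, and overlapping matches of different motifs were each counted.

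Lcn2 encodes lipocalin-2, a secreted protein that binds bacterial iron carriers and is released by reactive astrocytes and by neutrophils. Libraries 1, 2 and 3 of Sham held it at 2.25, 4.04 and 2.48 CPM, those of ICH at 139, 78.1 and 63.5 CPM, and those of EDB at 149.7, 15.8 and 5.94 CPM, and values of other genes are given in the same order. All ICH and EDB libraries lay above Sham, EDB 1 lay above every ICH library, and EDB 2 and EDB 3 lay below them. The rise from 2.92 ± 0.972 to 93.4 ± 39.9 CPM (SD, n = 3 each) had a log2 fold change of 4.999 ± 1.25 (SE, adjusted p = 0.0285), the largest of the 9 genes. Its call was lost when any 1 of the 6 Sham and ICH libraries was left out (adjusted p from 0.0550 to 0.109, log2 fold change from 4.60 to 5.30). Over all 20 alternatives it was kept in 12, among them a fit of only the 6 Sham and ICH libraries, and lost in 8.

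Within EDB, Lcn2 varied 25.2-fold between libraries. Its SD of log2 CPM there was 2.37, and only 0.224% of the 11138 tested genes with a mean of at least 5 CPM varied more. Against ICH its log2 fold change was -0.71 ± 0.99 (adjusted p = 0.766, 95% interval -3.02 to 1.60), so neither a fall nor a rise was resolved. Without EDB 1 the change was -3.10 and passed the test (adjusted p = 0.0338). Against Sham it was 4.29 ± 1.22 (adjusted p = 0.0784), and without EDB 3 4.82 (adjusted p = 0.0108).

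Some markers of other cell types that make Lcn2 moved with the groups as well, and others did not. The summed level of 10 neutrophil markers ran from 9.25 to 11.5 CPM in Sham, 56.2 to 70.7 CPM in ICH and 22.1 to 39.1 CPM in EDB. Most of it came from the receptor gene Csf3r, which rose in ICH (2.79 ± 0.24), as did the calprotectin genes S100a8 (2.40 ± 0.71, adjusted p = 0.0383) and S100a9 (2.02 ± 0.62, adjusted p = 0.0441). Of the 5 tested markers these 3 were called, and Cxcr2 (2.02 ± 0.66, adjusted p = 0.0550) and Ngp (-0.42 ± 0.93) were not. The other 5 were removed by the filter on low counts. Among these, Mpo, Elane, Ltf and Camp had 0 to 5 counts in every library, and Mmp8 had 1, 3 and 3 counts in Sham, 46, 5 and 15 in ICH, and 2, 2 and 5 in EDB. The 10 myeloid markers summed to between 543 and 594 CPM in Sham, 2415 and 2658 CPM in ICH, and 1214 and 2084 CPM in EDB. EDB 1 and EDB 2 had neutrophil sums of 38.8 and 39.1 CPM and myeloid sums of 2084 and 2079 CPM. Some single markers were higher in EDB 1 than in EDB 2, as Lcn2 was, and others were lower. S100a8 stood at 1.30 and 0.300 CPM, S100a9 at 2.97 and 0.599 CPM and Cxcr2 at 0.619 and 0.300 CPM. Csf3r was lower in EDB 1, at 32.2 and 36.7 CPM. Of the myeloid markers, Cd68 (61.6 and 32.7 CPM), Aif1, Tyrobp and C1qa were higher in EDB 1. Csf1r (716 and 802 CPM), Itgam (115 and 132 CPM), Laptm5, Cx3cr1, Fcgr3a and Ptprc were lower there. The part of these cells in the Lcn2 values was not tested.

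Of 4 genes for partners of lipocalin-2, Mmp9 rose in ICH (2.99 ± 0.75, adjusted p = 0.0177), and Lrp2 and Mc4r fell. Mmp9 encodes a matrix protease that lipocalin-2 stabilises, Lrp2 the endocytic receptor megalin and Mc4r a melanocortin receptor. Among all genes tested 7.3% were called lower in ICH. Lrp2 fell from 2.26 ± 0.614 to 0.707 ± 0.191 CPM (-1.67 ± 0.41, adjusted p = 0.0168). The lipocalin receptor Slc22a17 was not called, at 839 ± 156 CPM in Sham, 765 ± 160 in ICH and 983 ± 93.1 in EDB. None of the 4 was called in EDB against ICH.

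Ptx3 encodes pentraxin 3, a secreted pattern recognition protein that binds complement C1q. Its levels were 0.937, 0.274 and 0.425 CPM in Sham, 2.74, 1.70 and 1.73 CPM in ICH, and 0.433, 0.0599 and 1.19 CPM in EDB. The ICH libraries were above all others, and Sham and EDB overlapped. The differences were 1.89 ± 0.74 for ICH against Sham (adjusted p = 0.104) and -1.87 ± 0.73 for EDB against ICH (adjusted p = 0.238), with counts of 1 to 47 per library, and neither passed the test. With only the 6 Sham and ICH libraries fitted, the first passed it (adjusted p = 0.0389).

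Partners of Ptx3 were clearer. Of 10 tested genes for pentraxins and proteins that bind them 6 rose in ICH, 0 fell and 4 were not called (median 1.22, against 0.01 for all genes tested). They included the C1q chains C1qa (2.43 ± 0.21), C1qb (2.68 ± 0.22) and C1qc (2.82 ± 0.26). C1qa is also 1 of the 10 myeloid markers, which all rose in ICH (median 2.51), and the part of myeloid cells was not tested. The neuronal pentraxin Nptx2 had 0.29 ± 0.20 and was not called. In EDB against ICH, 0 of the 10 were called, and C1qc had -0.88 ± 0.25 (adjusted p = 0.121) and C1qb -0.63 ± 0.20 (adjusted p = 0.172).

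Serpina3n, which encodes a secreted inhibitor of serine proteases and is a standard marker of reactive astrocytes in mouse, was not higher in ICH. The Sham libraries had 119, 0 and 107 counts of it, the ICH libraries 0, 17 and 10, and the EDB libraries 0, 15 and 13. A count of 0 allows up to 3 counts, 0.205, 0.175 and 0.186 CPM in Sham 2, ICH 1 and EDB 1. It was highest in Sham 1 and Sham 3, at 7.44 and 7.57 CPM, against at most 1.07 CPM elsewhere, and each group had a library at 0. The fitted difference of ICH against Sham was -3.22 ± 1.40 (adjusted p = 0.145) and that of EDB against Sham -3.11 ± 1.39 (adjusted p = 0.215). Both passed the test once Sham 2 was left out (adjusted p = 0.0351 and 0.04999).

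A like split of libraries was found for albumin and several other plasma proteins made by the liver. They were highest in Sham 1 and Sham 3 and lowest in Sham 2, ICH 1 and EDB 1. The order of the libraries between these differed from gene to gene. Likeness was measured as the root mean square difference, over the 9 libraries, of log2 CPM minus the Sham mean. By this measure the gene nearest to Serpina3n was an unnamed gene (0.17), and Alb (0.25), the bikunin precursor gene Ambp (0.28), Serpina3c (0.36) and the macroglobulin gene Mug1 (0.39) were among the 7 nearest. Alb had 2658, 47 and 2331 counts in the Sham libraries, 39, 347 and 337 in ICH, and 40, 300 and 413 in EDB. In the 6 libraries with counts of both, there were 2.97 to 5 Serpina3n counts for every 100 of Alb. Serpina3c had 155, 0 and 126 counts in Sham, 0, 19 and 22 in ICH, and 0, 12 and 21 in EDB. Sham 2, ICH 1 and EDB 1, the library of each group lowest in Alb, had summed counts of 0 for Serpina3n, Serpina3c, Ambp and Mug1. Not all liver genes were at 0 there. The sums were 2 for Fga, 5 for Fgb, 5 for Apoh, 17 for Apoa1 and 126 for Alb. Apoa1 had 9 counts in ICH 1 and 6 in ICH 3, so it did not share the split. What put these transcripts into the libraries was not tested. How reads shared between Serpina3 genes were counted is not stated, which may also affect these counts.

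**Figure D3:**
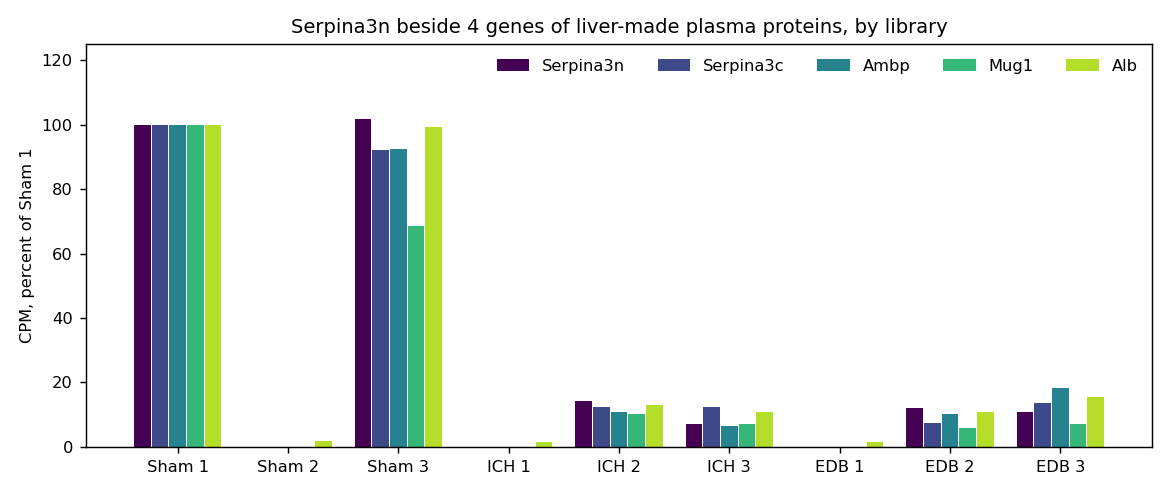
CPM of Serpina3n and of the liver-made Serpina3c, Ambp, Mug1 and Alb in each library, as percent of the level in Sham 1. Serpina3n stood at 102% in Sham 3, at 7.26 to 14.4% in ICH 2, ICH 3, EDB 2 and EDB 3, and at 0 in Sham 2, ICH 1 and EDB 1, as did Serpina3c, Ambp and Mug1 in those 3 libraries.

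Of 10 other tested serpins and serine proteases, Serpina3c included, 4 rose in ICH, 0 fell and 6 were not called (median 0.63). Serping1, the inhibitor of complement C1, rose from 23.0 ± 1.22 to 195 ± 9.37 CPM (3.08 ± 0.20, adjusted p = 1.99e-05). Serpinb1a, which inhibits neutrophil proteases, rose by 3.5 ± 0.27, and the protease Klk6 by 1.40 ± 0.35. In EDB against ICH, Serping1 alone of the 10 was called, and fell (-1.09 ± 0.19, adjusted p = 0.0411).

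Osmr encodes the oncostatin M receptor, which pairs with gp130 and activates STAT3. It stood at 1.4998, 2.26 and 4.39 CPM in Sham, 9.33, 5.60 and 7.99 CPM in ICH, and 3.34, 1.44 and 1.75 CPM in EDB. The ICH libraries were above all others, and those of Sham and EDB overlapped, with the lowest mean in EDB. It rose in ICH (1.496 ± 0.44, adjusted p = 0.0363). Left out singly, Sham 1, Sham 2, ICH 1 or ICH 3 ended this call (adjusted p from 0.0851 to 0.117). In EDB against ICH it had -1.81 ± 0.44 (adjusted p = 0.0927), which DESeq2 called (adjusted p = 0.00559). Against Sham the EDB difference was -0.31 ± 0.45 (95% interval -1.30 to 0.68).

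Of 18 tested genes of the gp130 pathway around Osmr, 5 rose in ICH, 0 fell and 13 were not called (median 0.93). Those that rose were the cytokine Lif (3.60 ± 0.76), the interleukin 6 receptor Il6r (1.16 ± 0.15), the transcription factor Stat3 (1.13 ± 0.12), the feedback inhibitor Socs3 (2.89 ± 0.29) and the NF-kB cofactor Bcl3 (2.91 ± 0.52). The ligand Osm, shown with gp130 outside the naming rule, had 9, 1 and 7 counts in Sham, 17, 22 and 14 in ICH, and 15, 9 and 7 in EDB, and was not called (1.44 ± 0.64, adjusted p = 0.149). Il6st, which encodes gp130, had 0.38 ± 0.17 (adjusted p = 0.161).

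Socs3 stood at 2.81, 2.39 and 2.76 CPM in Sham, at 22.7, 18.8 and 17.9 CPM in ICH, and at 8.04, 4.68 and 3.88 CPM in EDB, with no overlap between any of the groups. It was the gene of this list that fell in EDB against ICH (-1.84 ± 0.27, adjusted p = 0.0244), and it remained above Sham (1.06 ± 0.28, adjusted p = 0.0460). Stat3 had -0.47 ± 0.12 in EDB against ICH (adjusted p = 0.0965) and was above Sham (0.66 ± 0.12, adjusted p = 0.00776).

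S1pr3 encodes a receptor for sphingosine 1-phosphate, a lipid mediator of vascular tone and glial activation. It stood at 12.1, 16.1 and 20.5 CPM in Sham, 39.7, 44.3 and 27.4 CPM in ICH, and 23.8, 12.6 and 24.1 CPM in EDB. The ICH libraries lay above all others, while Sham and EDB overlapped. It rose in ICH (1.197 ± 0.28, adjusted p = 0.0134), a call lost without Sham 1 or without ICH 2 (adjusted p = 0.0570 and 0.0606). The difference of EDB against ICH was -0.88 ± 0.28 (adjusted p = 0.162), and that of EDB against Sham 0.32 ± 0.28 (95% interval -0.31 to 0.94).

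Sphk1 encodes sphingosine kinase 1, which makes the ligand of S1pr3. It had 3, 13 and 5 counts in Sham, 35, 9 and 11 in ICH, and 42, 4 and 9 in EDB, or 0.187, 0.889 and 0.354 CPM, 2.04, 0.566 and 0.594 CPM, and 2.60, 0.240 and 0.563 CPM. ICH 1 and EDB 1 were high and the other 7 libraries overlapped, so the groups were not separated. The differences were 1.16 ± 0.92 for ICH against Sham (95% interval -0.86 to 3.18) and 0.08 ± 0.85 for EDB against ICH (95% interval -1.79 to 1.95). Without EDB 1 the latter was -1.40 (adjusted p = 0.616).

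Other genes of sphingosine 1-phosphate metabolism and signalling rose in part. Of 22 tested, 5 rose in ICH, 0 fell and 17 were not called (median 0.09, against 0.01 for all genes tested). They were the receptor S1pr2 (0.95 ± 0.21), the lyase Sgpl1 that degrades the lipid (0.88 ± 0.13), the phosphatases Sgpp1 (0.48 ± 0.15) and Plpp1 (0.996 ± 0.14), and the ceramidase Asah1 (1.04 ± 0.16). Sgpl1 stood at 61.2 ± 5.09 CPM in Sham, 113 ± 14.96 in ICH and 68.4 ± 5.88 in EDB, and fell in EDB against ICH (-0.72 ± 0.13, adjusted p = 0.0439). The endothelial and astrocytic receptor S1pr1 was lower in EDB than in Sham (-0.72 ± 0.13, adjusted p = 0.00838), and 2.71% of all genes were called lower there. In ICH against Sham it had -0.40 ± 0.13 (adjusted p = 0.0565). The second kinase gene, Sphk2, stood at 36.8 ± 2.11 CPM in Sham and 47.1 ± 6.70 in ICH (0.36 ± 0.13, adjusted p = 0.0910), and like S1pr1 it was added outside the naming rule.

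**Figure D4:**
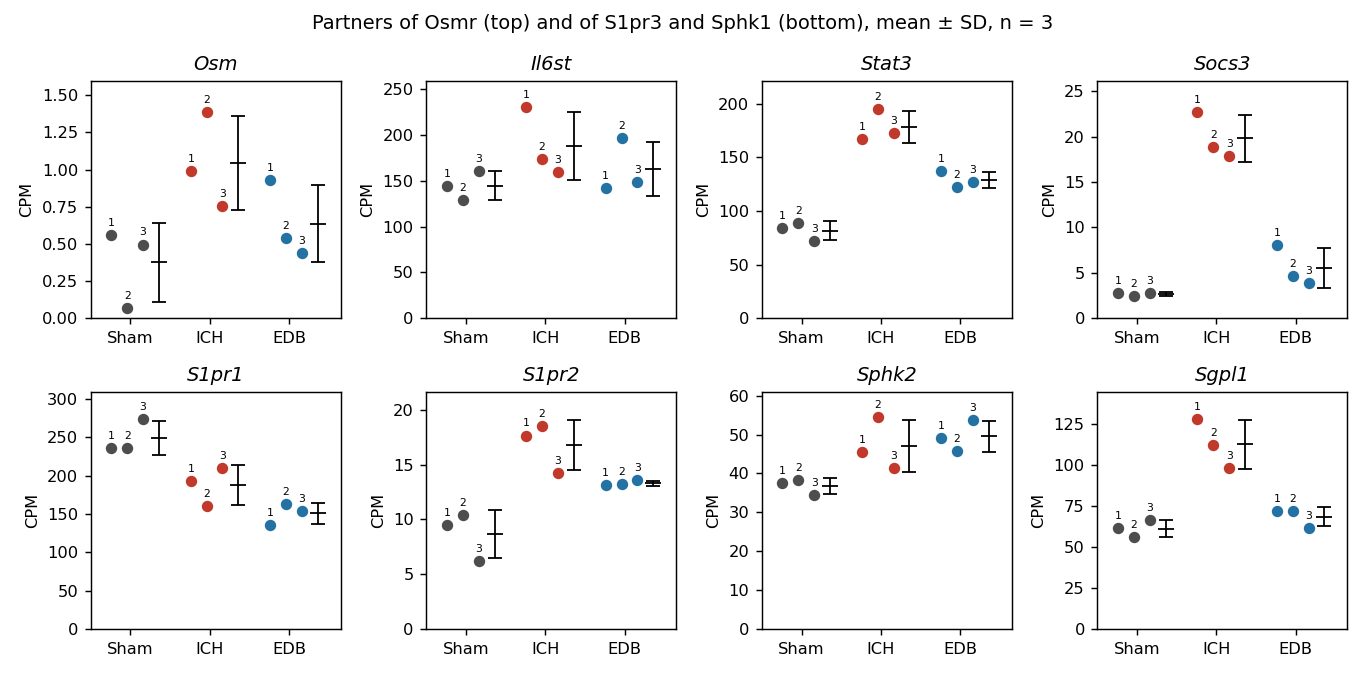
CPM in each library (points, with replicate number) and mean ± SD (n = 3) of Osm, Il6st, Stat3 and Socs3, partners of Osmr, and of S1pr1, S1pr2, Sphk2 and Sgpl1, partners of S1pr3 and Sphk1. Socs3 ran from 17.9 to 22.7 CPM in ICH and from 3.88 to 8.04 CPM in EDB.

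Cd109 encodes a membrane-anchored co-receptor that restrains TGF-beta signalling. It had 7, 3 and 8 counts in Sham, 32, 11 and 10 in ICH, and 5, 3 and 10 in EDB, with ICH 1 at 1.87 CPM and the other 8 libraries at 0.180 to 0.692 CPM. The groups overlapped, and 1 library, ICH 1, was high. The difference of ICH against Sham was 1.34 ± 0.67 (adjusted p = 0.202, 95% interval -0.14 to 2.82), and that of EDB against ICH -1.46 ± 0.67 (adjusted p = 0.315).

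Of 18 tested genes of TGF-beta signalling and of the macroglobulin family to which Cd109 belongs, 4 rose in ICH, 1 fell and 13 were not called (median -0.08). The ligand Tgfb1 (1.81 ± 0.22), the receptor Tgfbr2 (1.33 ± 0.16) and the protease inhibitor A2m (3.01 ± 0.36) rose, and the endothelial receptor Acvrl1 fell (-0.77 ± 0.17, adjusted p = 0.0106). The fourth that rose was Tgfbr1. In EDB against ICH, Tgfbr2 had -0.56 ± 0.15 and Tgfb1 -0.74 ± 0.21. None of the 18 was called in EDB against ICH by edgeR's quasi-likelihood test, and A2m had -1.16 ± 0.33 (adjusted p = 0.126).

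Emp1 encodes epithelial membrane protein 1, a small protein with several membrane spans. It stood at 8.06, 8.48 and 5.88 CPM in Sham, at 60.5, 24.7 and 28.1 CPM in ICH, and at 10.6, 8.93 and 8.69 CPM in EDB. The 3 groups did not overlap, and EDB lay close above Sham. It rose 5.04-fold in ICH, from 7.47 ± 1.40 to 37.7 ± 19.8 CPM (2.33 ± 0.32, adjusted p = 0.000570), and kept its call under every alternative run (log2 fold change from 1.82 to 2.54). In EDB, at 9.42 ± 1.06 CPM, it fell against ICH (-2.001 ± 0.32, adjusted p = 0.0312). Leaving out Sham 1 or any 1 of the EDB libraries ended that call, at changes between -2.10 and -1.95 (adjusted p from 0.0574 to 0.0887). EDB against Sham gave 0.33 ± 0.32 (95% interval -0.37 to 1.04).

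Of 3 tested relatives of Emp1, 2 rose in ICH. Emp3 rose from 2.43 ± 1.22 to 8.63 ± 1.72 CPM in ICH (1.83 ± 0.43, adjusted p = 0.0134), and the myelin gene Pmp22 from 43.8 ± 8.65 to 79.3 ± 14.6 CPM (0.86 ± 0.17, adjusted p = 0.00618). Emp2 was not called (-0.21 ± 0.20). In EDB against ICH, Emp3 had -1.28 ± 0.42 (adjusted p = 0.177), with all 3 EDB libraries (5.07, 1.74 and 3.88 CPM) below those of ICH (10.6, 7.61 and 7.67 CPM). Pmp22 had 0.13 ± 0.17, and neither difference from Emp1 was tested.

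Steap4 encodes a metalloreductase that reduces iron and copper and responds to inflammation. It stood at 3.499, 1.85 and 4.67 CPM in Sham, 11.2, 6.61 and 8.37 CPM in ICH, and 4.89, 5.58 and 4.56 CPM in EDB. The ICH libraries were above all others, and EDB overlapped Sham at its upper end. It rose in ICH (1.38 ± 0.34, adjusted p = 0.0155), a call lost without ICH 1 (adjusted p = 0.0662). EDB against ICH gave -0.80 ± 0.33 (adjusted p = 0.263), and EDB against Sham 0.58 ± 0.34 (95% interval -0.16 to 1.33).

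Its family member Steap2 followed another order. It stood at 6.65 ± 0.996 CPM in Sham, 8.73 ± 0.991 in ICH and 17.8 ± 2.85 in EDB, and was higher in EDB than in ICH (1.03 ± 0.20, adjusted p = 0.0485) where only 0.056% of all genes were called higher. Of 5 tested genes for metalloreductases and iron handling, the ferritin heavy chain Fth1 was the 1 that rose in ICH (0.46 ± 0.14, adjusted p = 0.0469). The transferrin receptor Tfrc had -1.19 ± 0.40 (adjusted p = 0.0601), and the iron importer Slc11a2 -0.35 ± 0.14 (adjusted p = 0.126).

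Other genes of the reactive astrocyte lists gave the setting for these 9. In bulk tissue the lists do not show which cells made the RNA, and all 10 myeloid markers rose in ICH too (median 2.51). Of 8 further pan-reactive genes all 8 rose in ICH (median 3.22), among them Gfap, Timp1, Hspb1 and Cd44, and 3 fell in EDB against ICH. Those 3 were the protease inhibitor Timp1 (-1.60 ± 0.31), the small heat shock protein Hspb1 (-1.85 ± 0.27) and the hyaluronan receptor Cd44 (-1.62 ± 0.22). The filament gene Gfap had -0.60 ± 0.16 and was not called there (adjusted p = 0.109). Of 6 further A2 genes, 4 rose in ICH (median 1.65), Cd14 (3.78 ± 0.30), S100a10 (2.81 ± 0.28), Slc10a6 (2.17 ± 0.41) and Stat3. Ptgs2 (means of 6.04 CPM in Sham and 4.02 in ICH) and Tm4sf1 (9.96 and 6.56 CPM) were lower in ICH and not called. S100a10 (-1.98 ± 0.26) and Cd14 (-1.34 ± 0.26) fell in EDB against ICH. Among 7 genes of the A1 list, linked to inflammation, 4 rose in ICH (median 1.79). These were Serping1, the proteasome gene Psmb8 (1.99 ± 0.16), Ggta1 (1.79 ± 0.21) and Gbp2 (2.19 ± 0.31). Fbln5 (means of 6.35 CPM in Sham and 4.85 in ICH), Srgn (28.8 and 25.3 CPM) and Fkbp5 (117 and 126 CPM) were not called. Serping1 and Ggta1 (-1.10 ± 0.20) fell in EDB against ICH. Of all genes tested, 11.4% were called higher in ICH and 0.631% lower in EDB against ICH.

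By contrast, the 12 markers of astrocytes in general had a median of -0.09 in ICH against Sham. Of them 2 rose (Gja1 and Glul) and 2 fell (Gjb6 and Aldoc). Of all genes tested, 11.4% were called higher and 7.3% lower. The summed levels of the 12 markers overlapped, at 8117 to 9242 CPM in Sham, 8613 to 11470 in ICH and 8296 to 8944 in EDB. Such sums can hide opposite changes. Glul had a mean of 2444 CPM in Sham and 4020 in ICH, and Aldoc 1424 and 928 CPM. Endothelial markers, another source of Osmr and Emp1, summed to 361 to 568 CPM in Sham, 293 to 372 in ICH and 299 to 312 in EDB. Those of fibroblasts summed to 155 to 221 CPM, 254 to 372 CPM and 187 to 330 CPM. The part of these cells in the changes of the 9 genes was not tested.

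**Figure D5:**
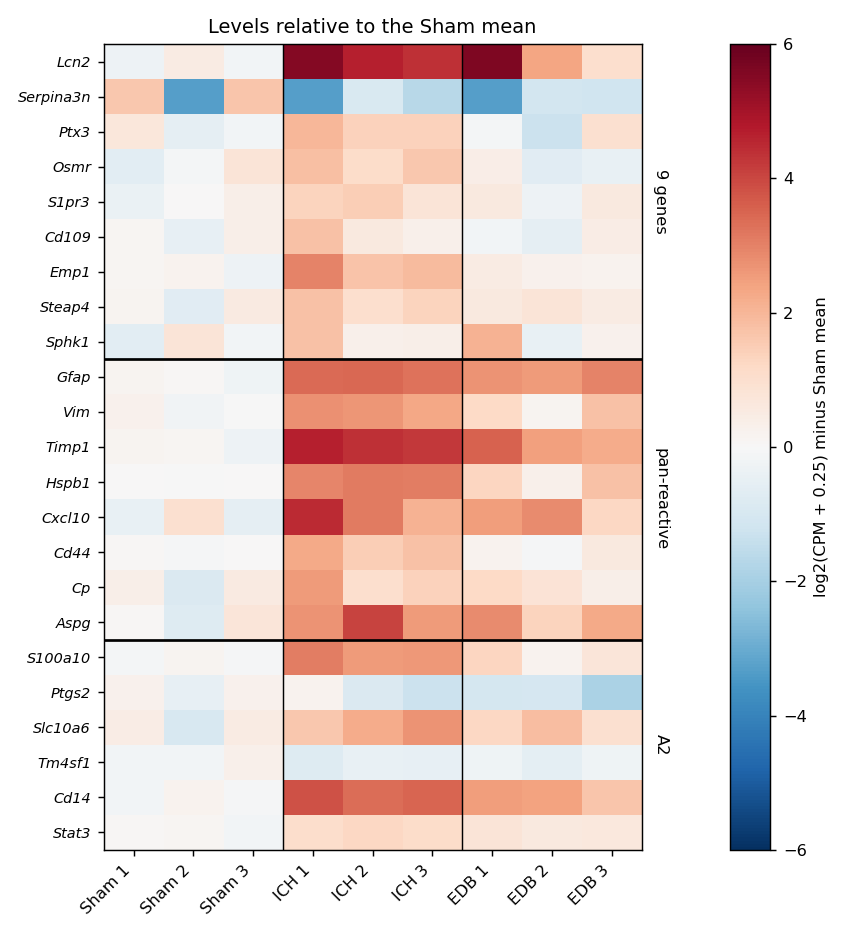
Each cell is log2(CPM + 0.25) of a gene in a library minus the mean of the 3 Sham libraries, for the 9 genes, 8 further pan-reactive genes and 6 further A2 genes (colour scale from -6 to 6). Serpina3n is lower in Sham 2 and in all ICH and EDB libraries than in Sham 1 and Sham 3, and in its row Lcn2 has the strongest colour in ICH 1 and EDB 1.

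Within groups the members did not vary evenly. ICH 1 was the highest ICH library for 7 of the 9 genes, beside 38.0% of all genes tested, and S1pr3 and Serpina3n were highest in ICH 2. EDB 1 was the highest EDB library for 4 of 9, Lcn2, Osmr, Emp1 and Sphk1, beside 34.2% of all genes. Without ICH 1, 2 of the 9 genes were called in ICH against Sham, and also 2 without Sham 1. Without ICH 2 or without ICH 3 the count was 3.

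By the same measure of likeness, the 3 genes outside the members that lay nearest to their mean profile were Stom (0.24), which encodes the membrane protein stomatin, A3galt2 (0.24) and the protease Adam12 (0.25). Stom stood at 17.7, 15.1 and 15.4 CPM in Sham, 52.0, 39.3 and 38.5 CPM in ICH, and 19.4, 14.1 and 19.1 CPM in EDB, and fell in EDB against ICH (-1.30 ± 0.18, adjusted p = 0.0197). The nearest single genes were the phagocyte gene Cd68 for Lcn2 (0.67), the replication gene Pclaf for Ptx3 (0.44), Gprc5a for Osmr (0.29), the adenosine deaminase gene Ada for S1pr3 (0.23), the cytokine receptor gene Il2rg for Cd109 (0.35), the mitotic gene Cenpf for Emp1 (0.35), Ticam2 for Steap4 (0.18) and Grifin for Sphk1 (0.46). The EDB libraries held Cd68 at 61.6, 32.7 and 11.6 CPM. Such likeness rests on the 9 libraries and their 3 groups, and no member was the nearest gene of another.

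Total counts ran from 14658110 to 17659936 per library. EDB 3 held markers of choroid plexus at 8144 CPM in sum, against 166 to 370 CPM in the other 8 libraries. Leaving it out took Emp1's call in EDB against ICH (adjusted p = 0.0882), as did leaving out Sham 1, EDB 1 or EDB 2. Leaving out Sham 2, ICH 1 and EDB 1, the libraries lowest in Alb, left 2 members called higher (Lcn2 and Emp1) and Serpina3n called lower in ICH against Sham (-3.22, adjusted p = 0.00436). With that difference between libraries as a term of the model instead, the 5 members rose and Serpina3n was called lower (adjusted p = 0.00398). Both were added after the values were seen, and since Serpina3n follows Alb, for this gene they select libraries by its own level and are no test of it.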

How the data were processed

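The libraries hold RNA from rat striatum, 3 per group, with groups and replicate numbers taken from the titles. The authors deposited whole-number read counts per gene in 1 file for each library. The submitters' processing notes name cutadapt, HISAT2, HTSeq and limma and the build Rnor_6.0, and for versions, annotation and strandedness the sources used here give nothing.

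Counts were fitted with edgeR 4.0.16 (R 4.3.3). filterByExpr by group left 14274 genes, libraries were scaled by TMM, and all 9 entered 1 robust quasi-likelihood model with a mean per group. Intervals are at 95%. Alternatives included RLE scaling, DESeq2 1.42.0, limma-voom (limma 3.58.1), other filters, the replicate number as a block and leaving out libraries. Profiles used log2 CPM with a prior count of 2. The procedure was tested on simulated data.

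Members and lists were chosen with earlier results of these data known. Named were all members, per list the 4 genes with the smallest p in ICH against Sham and the 2 in EDB against ICH, and nearest profiles. Others were chosen after their values were seen. Some list genes that this rule names are not reported here. Floors of 3 counts cover counting error only. Promoter sequences are from RefSeq GRCr8, whose table had 8 of the members.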

Additional observations from a re-analysis of the deposited data

How the results depend on the processing

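Each comparison was refitted under 20 alternatives, of which 2, leaving out Sham 2, ICH 1 and EDB 1 (lowest in Alb) and a term for those libraries, were chosen after seeing the data. Emp1 in ICH against Sham kept its direction and call in all 20. With any 1 library left out, the members called ranged from 2 to 5 in ICH against Sham, 0 to 1 in EDB against ICH and 0 to 1 in EDB against Sham, the related list genes called from 35 to 45, 1 to 10 and 14 to 30, and all genes called from 1769 to 2624, 8 to 321 and 508 to 1661. The values with all libraries were 5, 1 and 0 members, 45, 10 and 29 list genes, and 2670, 98 and 1094 genes. The 2670 fell to 1769 without ICH 1.

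Without Sham 2, ICH 1 and EDB 3 together, 2 members were called in ICH against Sham, 5 list genes and 198 genes in EDB against ICH, and 1 member in EDB against Sham. Without Sham 2, ICH 1 and EDB 1 together these were 3 members, then 4 list genes and 31 genes, then 2 members and 19 list genes. The Alb term gave 152 genes in EDB against ICH and 2 members in EDB against Sham. Under each of these settings, Serpina3n was among the members counted in both comparisons with Sham, and was called lower. Where 2 members were counted in EDB against Sham, the other was Lcn2, called higher. Serpina3n had 0 counts in Sham 2, ICH 1 and EDB 1, so for this gene such settings are no test. DESeq2 called 2 members, 20 list genes and 702 genes in EDB against ICH, and 1 member and 1797 genes in EDB against Sham. limma-voom called 182 genes in EDB against ICH, and a fit of only the 6 libraries compared called 5 list genes. With no filter, Lcn2 in ICH against Sham had an adjusted p of 0.0620. The cause of these moves was not tested. Scaling by library size moved the median change of ICH against Sham by 0.0966.

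With the replicate block, 4, 1 and 0 members were called in the 3 comparisons, Osmr in ICH against Sham was not among them (1.49, adjusted p = 0.0529), 58 genes were called in EDB against ICH, Sphk1 had -0.0509 in EDB against ICH and Ptx3 -0.0748 in EDB against Sham. Deviations of same-numbered libraries correlated across genes at -0.31 to 0.25, and those of libraries with different numbers at -0.23 to 0.33. No pairing by number was seen, but with 3 libraries per group this cannot exclude it.

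Only differences that were not called changed sign. With any 1 library left out, Serpina3n in EDB against ICH ran from -0.48 to 1.05, Sphk1 there from -1.40 to 0.95, and in EDB against Sham Ptx3 ran from -1.14 to 0.66, Osmr from -0.76 to 0.21, Cd109 from -0.70 to 0.21 and Sphk1 from -0.24 to 2.05. Sphk1 in EDB against ICH (0.08) had -0.30 in limma-voom, -0.21 without ICH 2 and without ICH 3, and -0.14 with the Alb term. Serpina3n in EDB against ICH (0.11) had -0.38 without EDB 2, -0.22 without EDB 3 and -0.80 without Sham 2, ICH 1 and EDB 3, where Lcn2 had 0.22. Ptx3 in EDB against Sham (0.02) had -0.51 in limma-voom, -0.30 without Sham 2, -0.13 without Sham 3, -1.46 without Sham 2, ICH 1 and EDB 3, and -0.15 without Sham 2, ICH 1 and EDB 1. In EDB against Sham, Cd109 had 0.19 without Sham 3. Ptx3, Cd109 and Sphk1 were removed by the filter in some alternatives and have no value there, and DESeq2 gave no adjusted p for Cd109 in EDB against ICH and EDB against Sham. Counts of 1 to 47 for Ptx3, 3 to 32 for Cd109 and 3 to 42 for Sphk1 per library limit what could be called.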
